A study of Mus musculus with 18 samples.

Results

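The heat shock and cold-inducible genes described here are 9 genes of the mouse hypothalamus, the chaperones Hspa1a, Hspa1b, Hspa8, Hsp90aa1, Hsph1, Dnajb1 and Hspa5 and the RNA-binding proteins Cirbp and Rbm3. They were found by the gene symbol of the array platform. Of 34760 probesets on the array, 14 carried only symbols of these genes, 13 of them with 1 symbol and 1 shared by Hspa1a and Hspa1b. A further 2 carried Hspa8 together with the small nucleolar RNAs Snord14d and Snord14c and are given separately. Of the 9 genes, 8 had a probeset of their own, and Hspa1b was read only through the shared one.

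RNA was measured on Affymetrix Mouse Gene 1.0 ST arrays, 1 male mouse per array, in 18 mice of the Schlager strains BPH/2J (hypertensive) and BPN/3J (normotensive). The ‘trough’ BP groups held 3 mice of each strain, killed in the inactive period, with an age of 18 weeks in their sample labels. The ‘peak’ BP groups held 6 mice of each strain, killed in the active period at 26 weeks, so time of day and age cannot be told apart in any comparison of ‘peak’ with ‘trough’. The protocol text of the labels gives a slightly different age for the ‘trough’ mice and names the controls BPN/2J, and the strain label of the BPN/3J ‘trough’ mice reads BPH/2J although their titles read BPN, which were followed. The labels describe whole hypothalamus, while the methods of the study describe the paraventricular nucleus and the dorsomedial hypothalamus. Body temperature is not among the data used here.

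Heat shock proteins are chaperones that hold and refold other proteins, and many of their genes are switched on by the heat shock factors when proteins unfold. Cirbp and Rbm3 are small RNA-binding proteins whose transcripts accumulate when cells are cooled slightly, so the families are known for moving in opposite directions with temperature. Mice are warmer in their active period than in their inactive period, and transcripts of both families are known to oscillate daily in several tissues.

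Promoter sequences of 6 of the 9 genes were held in a RefSeq table of the build GRCm38.p6. Of these, 5 are shown because each matched an element marked in capitals below. Each line gives the 250 bases before a start site, 5′ to 3′ on the strand of the gene, with the matched element in capitals. In Hspa1a, Hspa1b and Hsph1 the capitals mark a pair of inverted heat shock units (GAANNTTC or TTCNNGAA, both strands). This pair is shorter than the element of 3 units given below, and binding of heat shock factors was not tested.
Hspa1a: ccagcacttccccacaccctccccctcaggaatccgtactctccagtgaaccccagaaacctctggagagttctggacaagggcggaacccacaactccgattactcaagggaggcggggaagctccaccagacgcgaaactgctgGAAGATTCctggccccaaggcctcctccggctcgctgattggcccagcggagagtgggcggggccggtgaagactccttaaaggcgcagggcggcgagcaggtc
Hspa1b: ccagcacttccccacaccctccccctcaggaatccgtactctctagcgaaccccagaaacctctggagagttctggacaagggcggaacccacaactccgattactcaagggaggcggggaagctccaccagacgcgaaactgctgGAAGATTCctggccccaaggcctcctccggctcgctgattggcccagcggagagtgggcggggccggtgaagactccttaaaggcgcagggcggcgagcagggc
Hsph1: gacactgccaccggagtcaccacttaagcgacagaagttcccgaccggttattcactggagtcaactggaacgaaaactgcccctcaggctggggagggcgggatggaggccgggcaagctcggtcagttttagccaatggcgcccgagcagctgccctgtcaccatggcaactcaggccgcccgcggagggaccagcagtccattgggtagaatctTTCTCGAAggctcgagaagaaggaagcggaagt
In Hspa5 they mark an endoplasmic reticulum stress element (a CCAAT box and CCACG a fixed spacer apart, both strands), and in Cirbp an octamer described as responsive to mild cold (TCCCCGCC, both strands).
Hspa5: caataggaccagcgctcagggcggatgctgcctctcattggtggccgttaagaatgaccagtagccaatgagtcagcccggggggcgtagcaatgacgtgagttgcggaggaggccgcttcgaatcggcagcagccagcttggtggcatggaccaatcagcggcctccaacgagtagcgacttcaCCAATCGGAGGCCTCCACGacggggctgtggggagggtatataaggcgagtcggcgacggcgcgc
Cirbp: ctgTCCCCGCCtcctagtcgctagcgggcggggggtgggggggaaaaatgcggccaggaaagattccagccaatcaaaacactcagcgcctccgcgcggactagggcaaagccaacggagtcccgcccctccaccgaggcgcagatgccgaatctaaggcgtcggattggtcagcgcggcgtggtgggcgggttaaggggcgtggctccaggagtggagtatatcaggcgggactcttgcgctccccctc

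The windows lay at chr17:34972157-34972406 (Hspa1a, minus strand), chr17:34959239-34959488 (Hspa1b, minus strand), chr5:149636337-149636586 (Hsph1, minus strand), chr2:34771840-34772089 (Hspa5, plus strand) and chr10:80167589-80167838 (Cirbp, plus strand). The table holds 2 windows each for Hsph1 and Cirbp, of which 1 is shown, and the octamer was found in only that window of Cirbp. That window lies inside the annotated gene (chr10:80165990-80172786), before an internal start site. The Hsph1 window shown overlaps the annotated gene in part (chr5:149616843-149636498). Hspa1a and Hspa1b, neighbouring genes that encode the stress-inducible Hsp70, had windows equal at 98.8% of positions, with 3 of 250 differing, and the same heat shock pair at -104 to -97 from the start site. In Hsph1 the pair lay at -33 to -26. A pair of this kind was present in 12.8% of 32851 promoter windows. A stricter element of 3 such units, present in 0.466% of windows, was also searched and matched in no window of the 6 genes held in the table. Hspa8, Hsp90aa1 and Rbm3 had no window there and were not searched. The octamer was present in 4.64% of windows and the endoplasmic reticulum stress element in 0.113%. The octamer also occurred on the other strand of the Hspa1a and Hspa1b windows, at -137 to -130, and its letters overlap common GC-rich boxes. These matches are descriptions of the letters, not of factor binding.

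In both strains the cold-inducible pair had more signal at ‘peak’ BP, by between 1.57-fold and 1.92-fold relative to ‘trough’ BP, at each of its 3 probesets. In BPN/3J the probeset shared by the inducible Hsp70 genes Hspa1a and Hspa1b fell by 39.7% at ‘peak’ BP. The cold-inducible pair was thus higher, and this Hsp70 probeset lower, in the active period, when mice are known to be warmer. A link of these differences to body temperature was not tested. In BPH/2J Dnajb1, the co-chaperone that delivers clients to Hsp70, was 1.26-fold higher. The chaperones Hspa8 and Hspa5 were not called in either strain at probesets of their own, and no member was called between strains. A probeset was called at a Benjamini-Hochberg adjusted p under 0.05 in limma, over all probesets of the array.

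**Figure D1:**
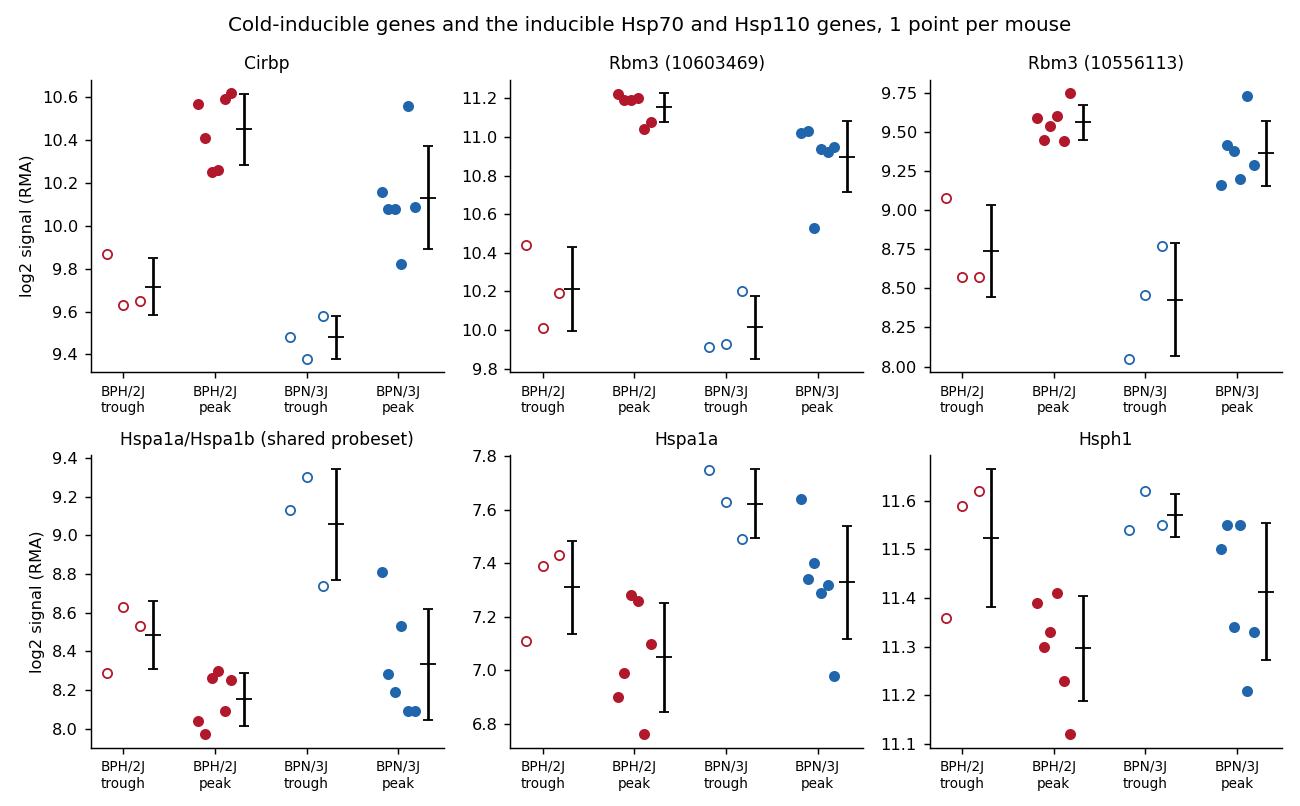
Log2 RMA signal (y axis, which does not start at 0 and differs between panels) of Cirbp, Rbm3, Hspa1a/Hspa1b, Hspa1a and Hsph1 in the 4 groups (x axis), 1 point per mouse, with the mean and SD of each group. The ‘peak’ mice of Cirbp and Rbm3 sit above the ‘trough’ mice of their own strain in all 3 panels, and those of the shared Hspa1a/Hspa1b probeset sit mostly below.

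Cirbp (probeset 10364712; chr10:80165990-80172786), the cold-inducible RNA-binding protein, is known as a stabiliser of transcripts, clock transcripts among them. Its log2 signal in BPH/2J was 9.87, 9.63 and 9.65 in the 3 ‘trough’ mice. In the 6 ‘peak’ mice it ran from 10.25 to 10.62 with a median of 10.49. In BPN/3J the ‘trough’ mice had 9.48, 9.38 and 9.58, and the ‘peak’ mice ran from 9.82 to 10.56 with a median of 10.09. The ‘peak’ and ‘trough’ mice did not overlap in either strain, the closest pair being the BPN/3J mice at 9.58 and 9.82. The difference was 0.73 ± 0.13 on the log2 scale (SE of the limma fit, n = 6 and 3) in BPH/2J, or 1.66-fold, with an adjusted p of 0.00279 in limma. In BPN/3J it was 0.65 ± 0.13, or 1.57-fold, with an adjusted p of 0.003.

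Rbm3, a close relative on the X chromosome (chrX:8138975-8145880), is known for protecting synapses in cooled mice. Its probeset 10603469 lies among probesets of X chromosome genes in the order of platform IDs, as the gene does. In BPH/2J it read 10.44, 10.01 and 10.19 at ‘trough’ BP and 11.04 to 11.22, median 11.19, at ‘peak’ BP. In BPN/3J it read 9.91, 9.93 and 10.2 at ‘trough’ BP and 10.53 to 11.03, median 10.95, at ‘peak’ BP. The groups did not overlap in either strain, and the 6 BPH/2J ‘peak’ mice also lay above the 6 BPN/3J ‘peak’ mice. The difference between ‘peak’ and ‘trough’ was 0.94 ± 0.11 (SE) in BPH/2J, or 1.91-fold (adjusted p = 0.000501, limma), which ranked 17 of 34760 probesets by p. In BPN/3J it was 0.89 ± 0.11, or 1.85-fold (adjusted p = 0.000216, limma), at rank 95.

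The other Rbm3 probeset, 10556113, lies among probesets of chromosome 7 genes, and its target sequence was not looked up. It moved in the same direction, from 9.08, 8.57 and 8.57 at ‘trough’ BP to between 9.44 and 9.75, median 9.57, at ‘peak’ BP in BPH/2J. In BPN/3J it went from 8.05, 8.46 and 8.77 to between 9.16 and 9.73, median 9.33. Neither strain's groups overlapped. The differences were 0.82 ± 0.15 (SE; adjusted p = 0.00382, limma) and 0.94 ± 0.15 (adjusted p = 0.000963, limma).

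In BPH/2J 4 of the 14 probesets were called higher at ‘peak’ BP, Cirbp, both of Rbm3 and Dnajb1, and 0 were called lower. Over all probesets 8.64% were called in this comparison, 4.25% higher and 4.39% lower, and above the 75th percentile of mean signal 10.6% and 9.85%. In BPN/3J 4 were called higher, Cirbp, both of Rbm3 and Hsp90aa1 10490946, and 1 lower. Over all probesets 25.3% were called, 12.9% higher and 12.4% lower, and above the 75th percentile 24.7% and 8.43%, so the share called higher is near this last background. Over the 13 probesets with 1 symbol the counts were 4 and 0 in both strains, since the call made lower in BPN/3J was that of the shared probeset. The median difference over the 14 stood at 0.15 (BPH/2J) and 0.12 (BPN/3J), against -0.02 and -0.01 over all probesets. The groups did not overlap at 5 probesets in BPH/2J and 3 in BPN/3J, all of them higher at ‘peak’, while 8.19% and 11.6% of all probesets were separated in that direction and 9.55% and 9.26% in the other.

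**Figure D2:**
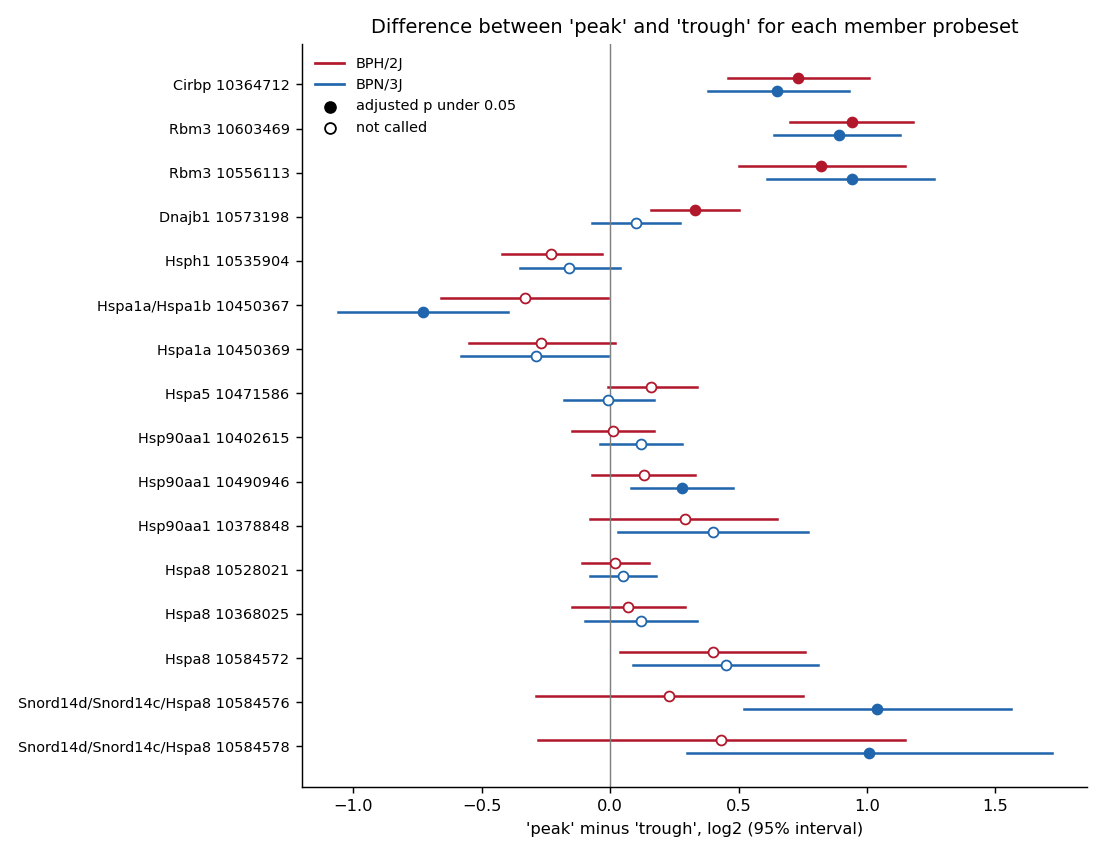
Difference between ‘peak’ and ‘trough’ BP on the log2 scale (x axis, with the 95% interval of the limma fit) for each of the 16 probesets (y axis) in BPH/2J (red) and BPN/3J (blue). Filled points were called at an adjusted p under 0.05, among them Cirbp and both Rbm3 probesets in both strains.

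Hspa1a (chr17:34969359-34972156) and Hspa1b (chr17:34956429-34959238) were read by the shared probeset 10450367, which cannot tell these near-identical genes apart. In BPN/3J its log2 signal was 9.13, 9.3 and 8.74 at ‘trough’ BP and ran from 8.09 to 8.81, median 8.23, at ‘peak’ BP. In BPH/2J it was 8.29, 8.63 and 8.53 at ‘trough’ BP and 7.97 to 8.3, median 8.17, at ‘peak’ BP. The ranges overlapped in both strains, in BPN/3J through the ‘peak’ mouse at 8.81 and in BPH/2J through the ‘trough’ mouse at 8.29, next to a ‘peak’ mouse at 8.3. In BPN/3J the difference came to -0.73 ± 0.16 (SE; adjusted p = 0.00432, limma). That of BPH/2J came to -0.33 ± 0.16 (adjusted p = 0.209, limma). The test of the difference between these differences gave 0.39, with a 95% interval of -0.07 to 0.86 and an adjusted p of 0.631 in limma, so the 2 strains were not shown to differ.

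The BPN/3J ‘trough’ mouse with the highest shared Hspa1a/Hspa1b signal also had the highest signal of pituitary genes. The mean log2 signal of 5 measured pituitary markers was 5.64, 8.15 and 5.84 in the mice whose shared probeset read 9.13, 9.3 and 8.74, against 4.97 to 5.96 in the other 15 mice. Among these markers Gh (growth hormone), Prl (prolactin) and Pitx1 were called lower at ‘peak’ BP in BPN/3J. On the log2 scale Gh differed by -2.48, Prl by -1.51 and Pitx1 by -0.60. Without the mouse at 8.15, BPN/3J ‘trough’ mouse 3, the shared probeset differed by -0.61 (adjusted p = 0.036, limma). This was the smallest difference and the highest adjusted p of the 18 fits that each left out 1 mouse, which ran from -0.89 to -0.61. The BPN/3J ‘trough’ mice at 5.64 and 5.84 stayed in that fit, so it cannot tell whether pituitary tissue had a part. Such a part was not tested. As in any bulk tissue, a change in the number of cells of a type and a change of RNA per cell cannot be told apart.

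The probeset of Hspa1a alone, 10450369, read 7.75, 7.63 and 7.49 in BPN/3J at ‘trough’ BP and 6.98 to 7.64, median 7.33, at ‘peak’ BP. In BPH/2J it read 7.11, 7.39 and 7.43 and then 6.76 to 7.28, median 7.05. The ranges overlapped in both strains, and the differences of -0.29 (95% interval -0.58 to -0.01, adjusted p = 0.114, limma) and -0.27 (-0.55 to 0.02, adjusted p = 0.253) did not pass. Of these 2 probesets only the shared one was called.

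Hsph1 (chr5:149616843-149636498), the Hsp110 nucleotide exchange factor of Hsp70 that works in disaggregation, had lower means at ‘peak’ BP in both strains without passing the test. In BPH/2J it read 11.36, 11.59 and 11.62 at ‘trough’ BP and 11.12 to 11.41, median 11.32, at ‘peak’ BP. In BPN/3J it read 11.54, 11.62 and 11.55 and then 11.21 to 11.55, median 11.42. The ranges overlapped in both strains. The differences were -0.23 (95% interval -0.42 to -0.03, adjusted p = 0.148, limma) and -0.16 (-0.35 to 0.04, adjusted p = 0.221). With quantile normalization of the deposited values both passed, at -0.32 (adjusted p = 0.0201, limma) and -0.24 (adjusted p = 0.0408).

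Dnajb1 (chr8:83608175-83612653), the Hsp40 that stimulates the ATPase of Hsp70, went the other way in BPH/2J. Its signal was 8.79, 9.02 and 8.92 at ‘trough’ BP and 9.13 to 9.34, median 9.25, at ‘peak’ BP, with no overlap. The difference was 0.33 ± 0.08 (SE; adjusted p = 0.0153, limma), and the call was lost without ‘trough’ mouse 1 (adjusted p = 0.123) or 3 (adjusted p = 0.0576). In BPN/3J it read 9.06, 9.17 and 9.27 and then 9.17 to 9.37, median 9.27, a difference of 0.10 with a 95% interval of -0.07 to 0.27 (adjusted p = 0.36, limma). The 3 BPH/2J ‘trough’ mice were the lowest of all 18 in this gene. The difference between the strains' differences was 0.23 (adjusted p = 0.597, limma).

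**Figure D3:**
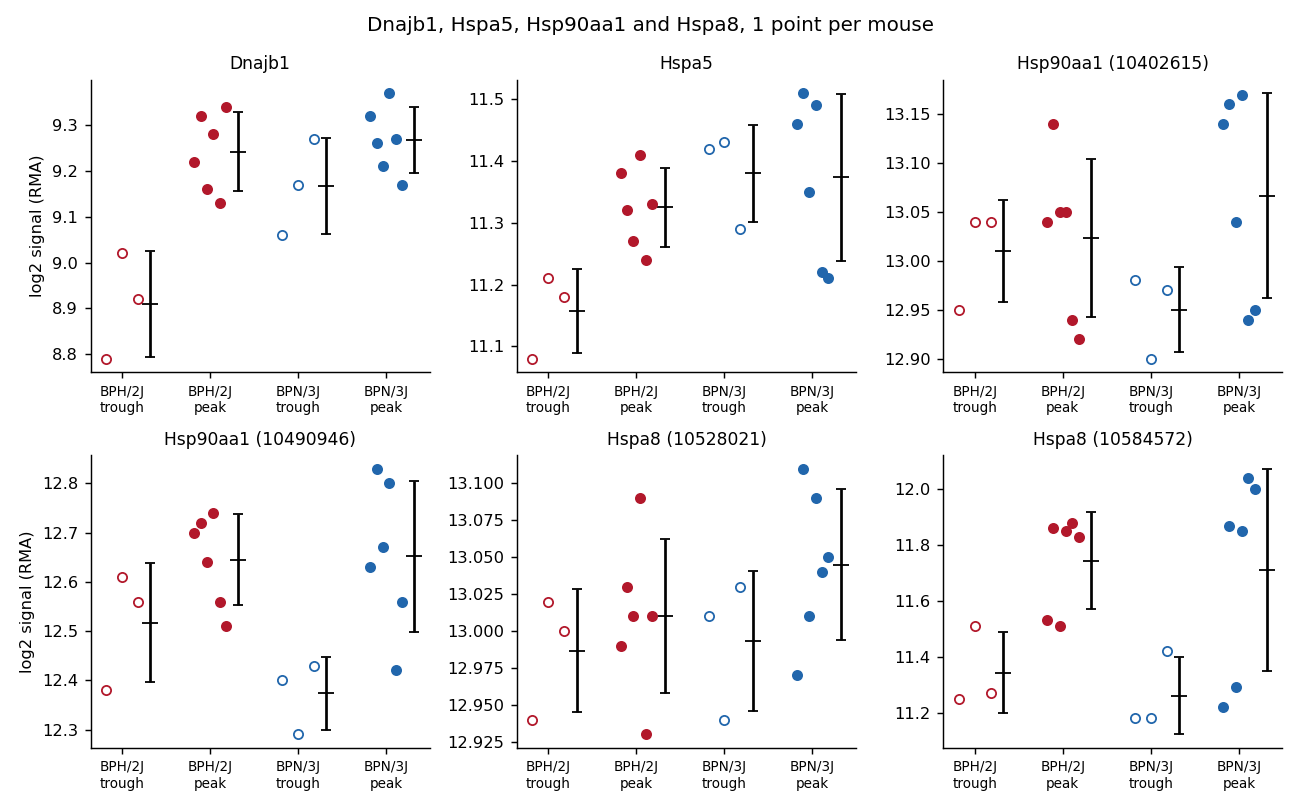
Log2 RMA signal (y axis, which does not start at 0 and differs between panels) of Dnajb1, Hspa5 and probesets of Hsp90aa1 and Hspa8 in the 4 groups (x axis), 1 point per mouse, with the mean and SD. In Dnajb1 the BPH/2J ‘trough’ mice sit at 8.79 to 9.02, below the other groups, and the spans of Hsp90aa1 10402615 and Hspa8 10528021 are narrow.

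Hsp90aa1 (chr12:110691036-110696395), the stress-inducible Hsp90 that matures kinases and steroid receptors, had 3 probesets, of which 10402615 lies among probesets of chromosome 12, where the gene is. There it read 12.92 to 13.17 over all 12 ‘peak’ mice and 12.9 to 13.04 over the 6 ‘trough’ mice, so the groups overlapped. Its mean of 13.02 lay at the 99.86th percentile of mean signal. Whether differences can be read in full at such a signal was not tested. Its differences were 0.01 in BPH/2J (95% interval -0.15 to 0.17) and 0.12 in BPN/3J (-0.04 to 0.28). The probeset 10490946, among chromosome 3 genes, was called in BPN/3J only by a narrow margin, at 0.28 ± 0.09 (SE; adjusted p = 0.0385, limma). Its BPN/3J values of 12.4, 12.29 and 12.43 at ‘trough’ BP and 12.42 to 12.83 at ‘peak’ BP overlapped, and leaving out any of 6 single mice, ‘trough’ 1 or 3 or ‘peak’ 5, 6, 7 or 8, ended the call, with adjusted p from 0.0514 to 0.152. The BPH/2J difference there was 0.13 (adjusted p = 0.456, limma). The remaining probeset, 10378848, among chromosome 11 genes, differed by 0.29 and 0.40 and was not called.

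Hspa8 (chr9:40801276-40805202), the constitutive Hsc70 that folds new proteins and uncoats clathrin vesicles, was read by 10584572 among probesets of chromosome 9, its own. In BPH/2J this probeset read 11.25, 11.51 and 11.27 at ‘trough’ BP and 11.51 to 11.88 at ‘peak’ BP, and in BPN/3J 11.18, 11.18 and 11.42 and then 11.22 to 12.04. The differences of 0.40 (95% interval 0.04 to 0.76, adjusted p = 0.163, limma) and 0.45 (0.09 to 0.81, adjusted p = 0.0612) did not pass. The BPN/3J ‘peak’ mice were spread, with mice 5 and 7 at 11.22 and 11.29 and the other 4 at 11.85 to 12.04. Without either of those mice the BPN/3J difference passed, at 0.55 without mouse 5 (adjusted p = 0.0206) and 0.53 without mouse 7 (adjusted p = 0.0254).

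The other Hspa8 probesets moved less, but they do not lie among probesets of chromosome 9. The probeset 10368025 lies among those of chromosome 10 and 10528021 among those of chromosome 5, and their target sequences were not looked up. At 10368025 the differences were 0.07 and 0.12. At 10528021, where 18 mice spanned 12.93 to 13.11, they were 0.02 (95% interval -0.11 to 0.15) and 0.05 (-0.08 to 0.18). The mean of 10528021 also lay at the 99.86th percentile of mean signal, with the same limit. The 2 probesets that also carry Snord14d and Snord14c, small nucleolar RNAs that lie in introns of this gene, were higher at ‘peak’ BP in BPN/3J, by 1.04 (adjusted p = 0.00768, limma) at 10584576 and 1.01 (adjusted p = 0.0382) at 10584578. Single mice ended these calls, at 10584576 without ‘trough’ mouse 1 (0.91, adjusted p = 0.0512, limma) and at 10584578 without ‘trough’ mouse 1 (0.79, adjusted p = 0.191), ‘trough’ mouse 3 (adjusted p = 0.115) or ‘peak’ mouse 8 (adjusted p = 0.052). In BPH/2J they differed by 0.23 (adjusted p = 0.629) and 0.43 (adjusted p = 0.484). The difference of the strains' differences at 10584576 was -0.80 (adjusted p = 0.596, limma), while the 3 probesets of Hspa8 alone gave -0.05, -0.03 and -0.05. These probesets cannot separate the small RNAs from the host transcript.

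Hspa5 (chr2:34772090-34776529), the Hsp70 of the endoplasmic reticulum known as BiP, was not called in any comparison. In BPH/2J it read 11.08, 11.21 and 11.18 at ‘trough’ BP and 11.24 to 11.41, median 11.32, at ‘peak’ BP, without overlap. The difference of 0.16 (95% interval -0.01 to 0.34, adjusted p = 0.249, limma) did not pass. In BPN/3J the values were 11.42, 11.43 and 11.29 and then 11.21 to 11.51, a difference of -0.01 (-0.18 to 0.17).

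Between the strains 0 of the 14 probesets were called at ‘peak’ BP, where 1.33% of all probesets were, 0.616% higher and 0.713% lower in BPH/2J. At ‘trough’ BP 0 were called, where 0.529% of all probesets were, 0.342% higher and 0.187% lower. At an unadjusted p under 0.05 there were 3 in each, against 9.93% and 10.4% of all probesets. At ‘peak’ BP these were Cirbp, 0.32 higher in BPH/2J (95% interval 0.09 to 0.54, adjusted p = 0.23, limma), Rbm3 10603469, 0.25 higher (0.05 to 0.45, adjusted p = 0.31; its groups did not overlap, as for 0.745% of all probesets in that direction and 0.826% in the other), and Hspa1a, at -0.28 (-0.51 to -0.05, adjusted p = 0.357). Without BPN/3J ‘peak’ mouse 10, whose Cirbp of 10.56 was the highest of its group, the Cirbp difference was 0.40 and passed (adjusted p = 0.0313).

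At ‘trough’ BP the shared Hspa1a/Hspa1b probeset was -0.57 in BPH/2J against BPN/3J (95% interval -0.95 to -0.19, adjusted p = 0.26, limma), Dnajb1 -0.26 (-0.45 to -0.07, adjusted p = 0.339) and Hspa5 -0.22 (-0.42 to -0.02, adjusted p = 0.438). The 3 BPH/2J mice lay below the 3 BPN/3J mice at these and at Hspa1a, and above them at Cirbp. Thus 4 of 14 were separated downward and 1 upward, where 8.73% and 11.1% of all probesets were. The ‘trough’ groups of 3 mice each limit this comparison, and the pituitary values above touch the same BPN/3J mice.

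The difference of differences, the strain difference at ‘peak’ minus that at ‘trough’ BP, was called for 0 of the 14 and for 0% of all probesets. At an unadjusted p under 0.05 there were 0 of the 14. Cirbp gave 0.08 (95% interval -0.31 to 0.47) and Rbm3 10603469 gave 0.05 (-0.29 to 0.39). The order of the 4 group means was the same for Cirbp and both Rbm3 probesets, with BPH/2J ‘peak’ highest, then BPN/3J ‘peak’, BPH/2J ‘trough’ and BPN/3J ‘trough’, and the strains at the same time were not called different.

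Within groups, after each group's mean was taken off, Hsph1, Hspa5 and the Hsp90aa1 probesets had positive correlations with each other over the 18 mice, while Hspa8 did not join them throughout. Hsph1 and Hsp90aa1 10490946 correlated with a Pearson r of 0.83 (Spearman rho 0.81), and without the 2 mice farthest in Hsph1 r was 0.73. Hsph1 and Hspa5 gave an r of 0.78 (rho 0.83), and the shared probeset and Hspa1a 0.70 (rho 0.65). The pair of Hspa5 and Hsp90aa1 10378848 was weaker, at 0.40, and depended on mice and scaling. Its r was 0.09 without the 2 mice farthest in 10378848 and 0.41 without the 2 farthest in Hspa5. With quantile normalization it was 0.12, and with arrays centred on their medians 0.60. Hspa8 10584572 gave -0.50 with Hspa1a, -0.30 with Hspa5 and -0.21 with Hsph1, or -0.29, -0.01 and 0.06 with arrays centred on their medians. With Hsp90aa1 10378848, 10402615 and 10490946 it gave 0.26, -0.23 and -0.06. In contrast, Hspa8 10528021 was positive with these Hsp90aa1 probesets (0.74, 0.44 and 0.63), with Hsph1 (0.37) and with Hspa5 (0.30). The third, 10368025, had values of both signs, such as 0.32 with Hsp90aa1 10378848 and -0.26 with Hspa5. Cirbp had its most negative values, chosen after they were seen, with Hsph1 and an Hsp90aa1 probeset. The r was -0.73 (rho -0.69) with Hsph1 and -0.70 (rho -0.61) with Hsp90aa1 10490946. Without the 2 mice farthest in Cirbp these were -0.59 and -0.45, with arrays centred on their medians -0.43 and -0.39, and with quantile normalization -0.80 and -0.77, so the size of these values depends on a few mice and on scaling. With Dnajb1 it gave -0.15, and with Hspa8 0.08 at 10368025, 0.18 at 10584572 and -0.39 at 10528021. Between Cirbp and Rbm3 r was 0.57 (rho 0.37; 0.37 without the 2 mice farthest in Cirbp) at 10556113 and 0.13 (rho 0.15) at 10603469. These are descriptions of values that share an array and its normalization.

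**Figure D4:**
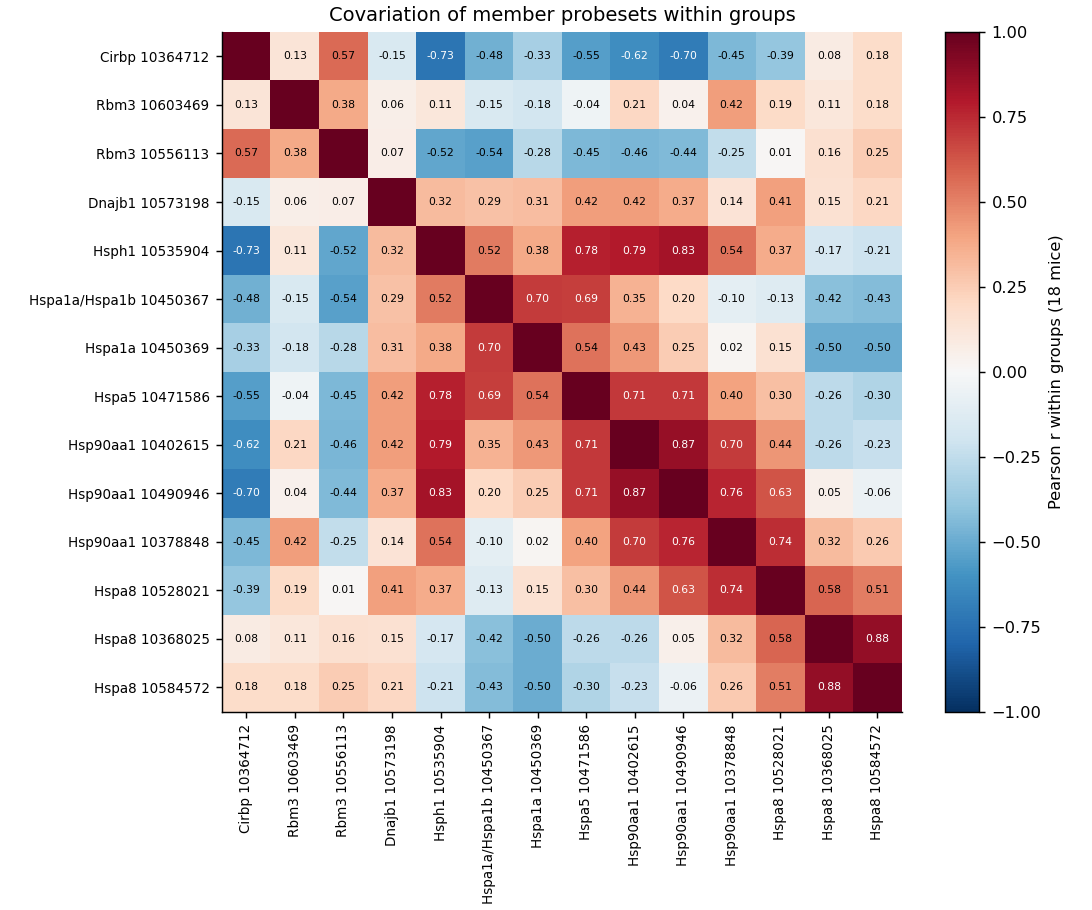
Pearson r between the 14 probesets (both axes) over 18 mice after group means were taken off, from -1 (blue) to 1 (red). Hsph1, Hspa5 and Hsp90aa1 form a block of positive values that reach 0.87, and Cirbp is negative against that block, down to -0.73.

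Over all 18 mice, with groups included, the named genes whose signal was most like that of Cirbp were Sdhb, a subunit of succinate dehydrogenase, at an r of 0.95, and Cndp2 and Vkorc1 at 0.94. For Rbm3 10603469 they were Dtymk and Arfrp1 at 0.96 and Cyb5b at 0.95. For Hspa5 they were Trpa1 at 0.83 and Spag7 and Xbp1 at 0.81, Xbp1 being the transcription factor of the unfolded protein response. For Hspa8 10584572 they were Rps18 and Ppia at 0.94 and Rpl24 at 0.93. Rbm3 10556113 was most like Caml, Plpp1 and Alg14, each at 0.92. The shared Hspa1a/Hspa1b probeset was most like Mrgprb5, Fcrl1 and Gpr157 at 0.85, and Hspa1a like Tmem255b at 0.84, Htr1b at 0.82 and Olfr251 at 0.81. Hsph1 was most like Mlec at 0.90 and Snx25 and Gtf2i at 0.85, and Dnajb1 like Cryz and Minar2 at 0.83 and Ssr2 at 0.82. Among the Hsp90aa1 probesets the values were highest for Gpbp1 (0.97), Dhx36 (0.95) and Tax1bp1 (0.94) at 10490946, for Rtraf (0.94), Tubd1 and Dnttip2 (0.93) at 10402615, and for Birc2 (0.91), Ccdc180 and Nasp (0.90) at 10378848. The other Hspa8 probesets were most like Hnrnpll (0.86), Anp32-ps (0.83) and Rn7sk (0.82) at 10368025, and Ugt3a2 (0.85), Ube2d3 and Clpx (0.80) at 10528021. These values include the differences between the 4 groups.

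The counts in the lists that follow stand beside 4.25% higher and 4.39% lower over all probesets in BPH/2J, and 12.9% and 12.4% in BPN/3J, or 24.7% and 8.43% there above the 75th percentile of signal. The 8 subunits of the chaperonin CCT ring, which folds actin and tubulin, had positive differences at ‘peak’ BP in both strains. Of the 8, 4 were called higher in each and 0 lower, with a median of 0.31 in both against -0.02 and -0.01 over all probesets. Tcp1 (0.38 and 0.34), Cct4 (0.41 and 0.54) and Cct8 (0.35 and 0.40) were called in both strains, Cct5 (0.35) in BPH/2J and Cct2 (0.39) in BPN/3J. Of 11 mitochondrial chaperones 3 were called higher in each strain, the Hsp10 co-chaperonin Hspe1 (0.50 and 0.62), Grpel1 (0.35 and 0.41) and Trap1 (0.25 and 0.50). Hspd1, the Hsp60 partner of Hspe1, differed by -0.05 and -0.03 and is named after its values were seen. Since the targets of the probesets used, 10455588 for Hspe1 and 10375240 for Hspd1, were not looked up, their contrast may not be one between the 2 genes. As a share, 3 of 11 in BPN/3J is near the background above the 75th percentile.

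Of 39 other cytosolic chaperones and cofactors 3 were called higher and 1 lower in BPH/2J and 5 and 2 in BPN/3J, with a median of 0.01 in both. Dnaja1 (0.32 and 0.27), Dnajb4 (0.33 and 0.24) and the Hsp90 cofactor Chordc1 (0.51 and 0.60) were called higher in both. Ptges3, the Hsp90 co-chaperone p23 (0.44, adjusted p = 0.00236, limma), and Hspa13, a microsomal member of the Hsp70 family (0.47, adjusted p = 0.00747), were called higher in BPN/3J and differed by 0.25 and 0.36 in BPH/2J. Hspa1l, the Hsp70 family gene next to Hspa1a, was the 1 called lower in BPH/2J, at -0.52 (adjusted p = 0.023, limma), and differed by -0.29 in BPN/3J (adjusted p = 0.116). Its signal was dim, with a mean log2 value of 5.74 against array medians of 6.17 to 6.42. Fkbp4, an Hsp90 cofactor of steroid receptors (-0.30, adjusted p = 0.00753, limma), and the small heat shock protein Hspb1 (-0.42, adjusted p = 0.019) were called lower in BPN/3J and differed by -0.13 and -0.20 in BPH/2J. Of 4 measured heat shock factors and regulators only Hsbp1, which binds heat shock factor trimers, was called, higher in both strains (0.39 and 0.35).

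Of 29 endoplasmic reticulum chaperones and unfolded protein response genes 1 was called higher and 1 lower in BPH/2J, and 2 and 3 in BPN/3J. Herpud1 (0.27) and Sel1l (-0.23), both of the degradation machinery, were those in BPH/2J, and differed by 0.05 and -0.13 in BPN/3J. In BPN/3J the co-chaperones Dnajb9 (0.54) and Dnajc10 (0.30) were called higher and the stress-induced genes Trib3 (-0.52), Creld2 (-0.34) and Sdf2l1 (-0.42) lower, against 0.28, 0.19, -0.02, -0.01 and -0.14 in BPH/2J. Manf, a secreted stress-induced factor of this list that is also named after its values were seen, was lower in BPH/2J than in BPN/3J at both times, with a difference of -0.32 at ‘peak’ (adjusted p = 0.00572, limma) and -0.46 at ‘trough’ BP (adjusted p = 0.0116). Of 10 RNA-binding relatives of Cirbp and Rbm3 0 were called in BPH/2J, and in BPN/3J 4 were higher and 1 lower. The splicing regulators Rbmx (0.89), Srsf5 (0.43) and Rbm39 (0.39) and the FET family member Taf15 (0.41) were those called higher, and Rbm10 (-0.22) lower. In BPH/2J these 5 differed by 0.43 (adjusted p = 0.0725, limma), 0.07, 0.23, -0.09 and -0.02. The difference of differences was called for 0 genes of this list, so the strains were not shown to differ.

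**Figure D5:**
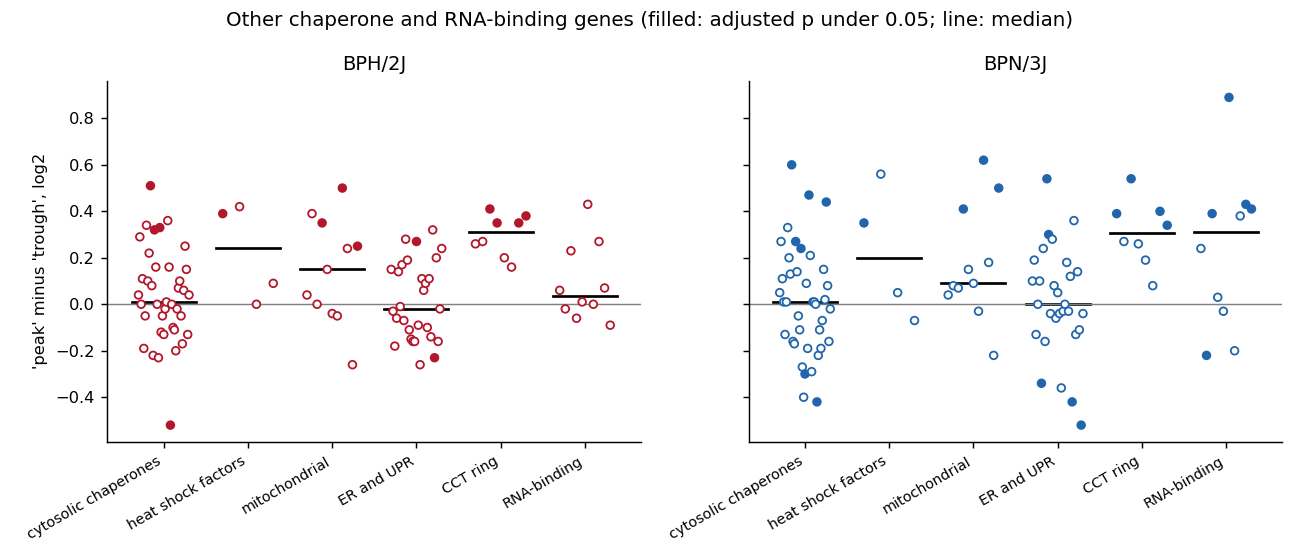
Difference between ‘peak’ and ‘trough’ BP on the log2 scale (y axis) for the genes of 6 lists outside the 9 genes (x axis), 1 point per gene, in BPH/2J and BPN/3J. Filled points were called, lines are medians, and all 8 points of the CCT ring lie above 0 in both panels.

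Other lists moved beside these results, and their part in them was not tested. Of 8 clock genes 0 changed with time in BPH/2J by this test, and 1, Nr1d2 at 0.26, was higher at ‘peak’ BP in BPN/3J. Of 6 endothelial markers 2 were called lower at ‘peak’ BP in BPH/2J and 1 in BPN/3J, with mean signals of 7.97 to 8.04 at ‘trough’ and 7.49 to 7.79 at ‘peak’ in BPH/2J and 7.77 to 7.81 and 7.41 to 7.94 in BPN/3J. Of 11 immediate early genes 0 were called in BPH/2J and 1 higher and 3 lower in BPN/3J, where the share of all probesets called either way was 25.3%. Of 12 hypothalamic markers 11 were measured, and the peptides Hcrt and Pmch were called higher at ‘peak’ BP in BPH/2J, by 1.29 and 0.86. In BPN/3J 0 of them were called. Of 6 astrocyte markers 1 was called lower in BPH/2J and 0 in BPN/3J. Of 6 microglial markers 1 was called higher and 1 lower in each strain. Of 5 glucocorticoid-induced genes 1 was called higher in BPH/2J and 0 in BPN/3J. Between strains at ‘peak’ BP 1 clock gene, 1 hypothalamic marker and 1 glucocorticoid-induced gene were called higher in BPH/2J. The least correlated arrays were BPN/3J ‘peak’ mouse 11 and BPN/3J ‘trough’ mouse 1, with mean correlations of 0.963 and 0.968 with the rest.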

How the data were processed

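Arrays of 18 mice were used. The authors normalized them by robust multi-array analysis (RMA), and the deposited values are log2 signals, with 34760 probesets and 0 missing values; the version of RMA is not stated in the material at hand. RMA forces arrays to a common distribution before probes are summarised, so a shift shared by all genes cannot be seen, and precision is limited by the number of arrays. No 2 arrays were identical, the highest correlation being 0.992. Probesets were named by the platform annotation, of which 21640 carry 1 symbol.

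All 4 groups were fitted in 1 model in R 4.3.3 with limma 3.58.1 (lmFit, contrasts, eBayes; 14 residual and 2.94 prior degrees of freedom). P-values were adjusted by Benjamini-Hochberg over all probesets and called under 0.05. The comparisons were ‘peak’ minus ‘trough’ BP in each strain, the strains at each time, and the difference of differences. Named by rule were all member probesets, up to 6 called genes per gene list by p, and the 3 named genes most correlated with each member probeset; Dnaja1, Hspb1, Sdf2l1, Hspd1 and Manf were named after their values were seen. Gene lists are described by counts and medians. In the lists, the probeset with the highest mean stood for a gene with several. The procedure was tested on simulated data. Plots were made with matplotlib 3.10.9 under Python 3.11.15.

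The members, lists and rules were chosen with earlier results of these data known. The 14 probesets counted, the comparison with probesets above the 75th percentile of signal, the motifs and the promoters shown were chosen after the values had been seen. Bases after the start site were left out of the promoters. Upstream sequences of Hspa8, Hsp90aa1 and Rbm3 were not used here, and that of Dnajb1 held none of the marked elements.

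The mouse numbers of the labels were not taken to pair mice of different strains, since the correlations of arrays sharing a number and time ran from -0.30 to 0.19. Alternatives were quantile normalization, median centring, array weights, dropping the dim probesets (below the 40th percentile of the mean), a trended robust prior, 1 probeset per gene, only the groups compared, the number as a block, fewer arrays, and leaving out each mouse.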

Additional observations from a re-analysis of the deposited data

Results flagged for a closer look

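Over 32 pairs of a probeset and a group of 6 mice, 3 had 1 mouse set apart from the other 5 by more than Dixon's 95% limit, where chance gives about 1 in 20. The Rbm3 probeset 10603469 read 10.53 in BPN/3J ‘peak’ mouse 7, below the 10.92 to 11.03 of the others. This mouse also had one of the low values of Hspa8 10584572, at 11.29. The Snord14d/Snord14c/Hspa8 probeset 10584576 read 9.57 in BPH/2J ‘peak’ mouse 4, above the 8.52 to 8.91 of the others. The probeset 10584578 of the same genes read 9.2 in BPN/3J ‘peak’ mouse 11, above 7.3 to 7.87, and this array was the one least correlated with the rest.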

How the results depend on the processing

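Cirbp and both Rbm3 probesets were called higher at ‘peak’ BP in both strains, and the shared Hspa1a/Hspa1b probeset lower in BPN/3J, under each alternative that tested them and without each mouse in turn. Calls lost under some setting were those of Dnajb1 (BPH/2J), Hsp90aa1 10490946 (BPN/3J) and both Snord14d/Snord14c/Hspa8 probesets (BPN/3J). That of Hsp90aa1 ended with quantile normalization (0.15, adjusted p = 0.253, limma), with only the groups compared (adjusted p = 0.108) and without the 2 least correlated arrays (adjusted p = 0.0803). The Snord14d/Snord14c/Hspa8 probesets gave 0.76 (adjusted p = 0.0502) and 0.53 (adjusted p = 0.189) without those arrays. Array weights raised the members called from 5 to 10 in BPN/3J (8 higher, 2 lower) and from 0 to 6 between strains at ‘trough’ BP (2 higher, 4 lower). They gave BPN/3J ‘trough’ mouse 3 a weight of 9.44, against 0.409 and 0.636 for ‘trough’ mice 1 and 4. The weighted BPN/3J ‘trough’ group thus rests mostly on mouse 3, the mouse with the pituitary mean of 8.15. With 1 probeset per gene, where the shared probeset and the second of Rbm3 are not tested, the BPN/3J count was 2. Quantile normalization split the 5 BPN/3J calls 3 to 2. Counted over the 13 probesets with 1 symbol or all 16, a choice added after the data were seen, BPN/3J had 4 and 7 and BPH/2J 4 and 4.

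Over all probesets, array weights changed the calls from 3005 to 9257 (BPH/2J), 8803 to 19431 (BPN/3J), 184 to 8091 (strains at ‘trough’) and 0 to 997 (difference of differences). Using only the groups compared gave 4763 in BPN/3J and 67 at ‘trough’, leaving out the 2 least correlated arrays 4587 in BPN/3J, and the lower-numbered ‘peak’ mice alone 6675 in BPH/2J and 349 at ‘trough’; each of the last 2 gave 1 in the difference of differences. Median centring moved the share of calls that were higher from 49.2% to 62.2% in BPH/2J and from 51% to 70% in BPN/3J. Without BPH/2J ‘trough’ mouse 1 BPH/2J calls over all probesets fell to 1035, and without BPN/3J ‘trough’ mouse 1 those of BPN/3J to 3826; without BPH/2J ‘trough’ mouse 3 those between strains at ‘trough’ fell to 82.

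The replicate block was run for the strain comparisons and the difference of differences, and no paired analysis was possible for ‘peak’ minus ‘trough’ because those groups share no numbers. It gave 0 members called in each, with 139, 29 and 0 over all probesets; the mice share only a number.

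Differences near 0 changed sign; none of them was called on either side. With quantile normalization they were Hspa8 10368025 (-0.01), Hsp90aa1 10402615 (-0.03) and Hspa8 10528021 (-0.01) in BPH/2J, and Hspa8 10528021 (-0.01) and Dnajb1 (-0.01) in BPN/3J. With median centring they were Hspa5 (0.09) in BPN/3J, Hspa8 10368025 (0.01), Hsp90aa1 10490946 (0.03), Hspa8 10528021 (0) and Dnajb1 (0.01) between strains at ‘peak’, Hsp90aa1 10378848 (0.05), Hspa8 10528021 (0.06) and Hsph1 (0.03) at ‘trough’, and Hspa1a (-0.01) in the difference of differences. With array weights they were Hspa5 (0.01) in BPN/3J, Hsp90aa1 10378848 (0.24) and Hspa8 10528021 (0.04) at ‘trough’, and Hspa1a (-0.03) and Rbm3 10556113 (0.02) in the difference of differences. With the replicate block they were Hspa8 10368025 (0.03) at ‘peak’, Hsp90aa1 10378848 (0.01) at ‘trough’, and Hspa8 10584572 (0.14) and Rbm3 10603469 (-0.13) in the difference of differences. Without the 2 least correlated arrays they were Hspa5 (0.05) in BPN/3J, Hspa8 10368025 (0.02) at ‘peak’, Hsp90aa1 10378848 (0.07) and Snord14d/Snord14c/Hspa8 10584578 (-0.19) at ‘trough’, and Hspa8 10368025 (0), Hspa1a (-0.10), Rbm3 10556113 (0.06) and Hspa8 10584572 (0.05) in the difference of differences. With the lower-numbered ‘peak’ mice they were Hspa5 (0.07) in BPN/3J, and Hspa1a (0) and Hspa8 10584572 (0.05) in the difference of differences.

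Leaving out each mouse gave 3 to 4 members called in BPH/2J, 4 to 5 in BPN/3J, 0 to 1 between strains at ‘peak’ (Cirbp, without BPN/3J mouse 10) and 0 in the others. Ranges that crossed 0 were Hsp90aa1 10402615 in BPH/2J (-0.02 to 0.03) and Hspa5 in BPN/3J (-0.05 to 0.03). Between strains at ‘peak’ they were Hspa8 10368025 (-0.08 to 0.02), Hsp90aa1 10490946 (-0.06 to 0.03) and Hspa8 10584572 (-0.07 to 0.10). At ‘trough’ they were Hspa8 10368025 (-0.04 to 0.09), Hsp90aa1 10378848 (-0.17 to 0.07), Hspa8 10528021 (-0.04 to 0.01), Hsph1 (-0.10 to 0.04), Hspa8 10584572 (0 to 0.16), Snord14d/Snord14c/Hspa8 10584576 (-0.01 to 0.33) and 10584578 (-0.19 to 0.29). In the difference of differences they were Hspa8 10368025 (-0.12 to 0.01), Hsp90aa1 10378848 (-0.21 to 0.03), Hspa1a (-0.07 to 0.09), Hspa8 10528021 (-0.05 to 0), Rbm3 10556113 (-0.28 to 0.07), Hspa8 10584572 (-0.15 to 0.04) and Rbm3 10603469 (-0.05 to 0.17). The causes were not tested.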
